A study of Mus musculus with 8 samples.

Results

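Genes of myelin and of the mature oligodendrocyte were examined in the cortex of 8-mo-old PS19 and Adrb1+/m;PS19 mice. The group was made up of 9 genes (Mbp, Mobp, Mal, Cnp, Mag, Mog, Cldn11, Opalin and Ermn), taken by their gene names from the 54532 genes listed in the deposited counts, and all 9 were among the 17195 genes that passed the filter on low counts. PS19 mice (n = 4: m677, m668, m665 and m659) carry a transgene in which the prion protein promoter of the mouse drives human tau (1N4R) bearing P301S. Adrb1+/m;PS19 mice (n = 4: m671, m661, m660 and m658) carried the same transgene and 1 knock-in copy of the Adrb1 allele A187V, made by CRISPR/Cas9. Every mouse carried the tau transgene, so no comparison with brain free of it was possible here, and all were C57BL/6 and singly housed. Each mouse gave 1 library of total cortical RNA, and p-values measure the spread between these mice only.

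Oligodendrocytes wrap axons in many layers of their own membrane. The layers are pressed together into compact myelin by proteins on their inner faces and in the membrane, while other proteins sit at the edges of the wrap, at the surface facing the axon or at the outside. Precursor cells mature through a newly formed stage before these genes are switched on, largely by the transcription factors SOX10 and MYRF. In tissue RNA such as this, fewer cells of a type and less RNA per cell cannot be told apart.

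The libraries held 14653222 to 21223754 counts, of which the 9 genes took between 0.392% (m668) and 0.530% (m665), or 57451 to 112517 counts. In m661 some of the 9 genes, mainly Ermn and Mal, did not keep their usual proportions to the others. Opalin was high against the others there, but its proportion to them also varied between the other mice. The mice m668 and m658 had the most transcripts of Ttr, the transthyretin gene of the choroid plexus, at 340.4 and 526 CPM, where m659 had 129 CPM and the other 5 mice 11.5 to 59.4 CPM. CPM is the normalised count of a gene scaled to a common library size. The tissue held the markers of cortical neurons, whose summed level was 1589 to 1992 CPM, and also those of striatum, at 944 to 2113 CPM. Of 8 genes of Schwann cells, which make the myelin of peripheral nerve, the 5 that could be tested had a summed level of 93.6 to 118 CPM, most of it from Drp2 (mean 85.1 CPM), while Dhh and Pmp2 had at most 4 and 1 counts in any mouse.

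No difference between Adrb1+/m;PS19 and PS19 mice was detected for any of the 9 genes. With edgeR's quasi-likelihood test, 0 of 9 had an unadjusted p-value under 0.05, where 2.8% of all genes tested did, and none of the 17195 genes had an adjusted p-value under 0.05. The median log2 fold change of the 9 genes was -0.012, beside 0.00046 over all genes tested, with 6 point estimates below 0 and 3 above. No gene of the 9 had groups that failed to overlap (2.02% of all genes did). The smallest 2-sided p-value that an exact permutation test of 4 against 4 mice allows is 0.0286, and the lowest among the 9 was 0.371, for Ermn.

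The genes of compact myelin come first. Mbp, whose basic protein holds the inner faces of the membrane together, was at 3106, 2379, 3136 and 2549 CPM in the PS19 mice (in the order m677, m668, m665, m659, kept throughout). In the Adrb1+/m;PS19 mice it was at 3043, 2568, 2862 and 2409 CPM (in the order m671, m661, m660, m658). The 2 highest mice were PS19 and so was the lowest, and the groups overlapped over most of their range. The mean was 2793 ± 386 CPM (SD, n = 4) in PS19 and 2721 ± 285 CPM (SD, n = 4) in Adrb1+/m;PS19 mice. The log2 fold change was -0.038 (SE 0.091, 95% interval -0.23 to 0.16, edgeR p = 0.684, exact permutation p = 0.686, edgeR adjusted p = 0.999569).

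Mobp, another basic protein of compact myelin, was at 988, 733, 1025 and 742 CPM in PS19 and 897, 952, 914 and 811 CPM in Adrb1+/m;PS19 mice. All 4 Adrb1+/m;PS19 mice lay inside the range of the PS19 mice, which split into a high and a low pair. The log2 fold change was 0.035 (SE 0.10, 95% interval -0.18 to 0.25, edgeR p = 0.728, exact permutation p = 0.743). Mal, a proteolipid of the lipid-rich membrane that takes part in sorting proteins to myelin, was at 231, 174, 245 and 176 CPM in PS19 and 216, 251, 192 and 174 CPM in Adrb1+/m;PS19 mice. Its highest mouse was m661, and the other 3 Adrb1+/m;PS19 mice lay within the PS19 range. The log2 fold change of Mal was 0.014 (SE 0.12, 95% interval -0.25 to 0.28, edgeR p = 0.913, exact permutation p = 0.886).

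Next are the genes of the cytoplasmic channels, the surfaces and the seams of the sheath. Cnp, a phosphodiesterase of the uncompacted myelin that keeps its cytoplasmic channels open, was at 393, 294, 376 and 329 CPM in PS19 and 371, 357, 357 and 312 CPM in Adrb1+/m;PS19 mice. The highest and the lowest mouse were both PS19. Its log2 fold change was 0.0054 (SE 0.083, 95% interval -0.17 to 0.18, edgeR p = 0.949, exact permutation p = 0.914). The Cnp gene overlaps Dnajc7 on the other strand, which had up to 2506 counts in a mouse, and since the strand setting of the counting is not given, reads of the 2 genes cannot be told apart in the overlap. Mag, an adhesion protein on the innermost layer facing the axon, was at 184, 145, 186 and 151 CPM in PS19 and 180.5, 157, 163 and 149 CPM in Adrb1+/m;PS19 mice. Here too the PS19 mice held both ends of the range. The log2 fold change of Mag was -0.038 (SE 0.085, 95% interval -0.22 to 0.14, edgeR p = 0.658, exact permutation p = 0.8286).

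Mog, an immunoglobulin-domain protein on the outer surface of myelin, was at 60.7, 48.9, 69.6 and 50.7 CPM in PS19 and 59.9, 59.2, 58.6 and 50.8 CPM in Adrb1+/m;PS19 mice. In the Adrb1+/m;PS19 group 3 mice lay close together and m658 below them. The log2 fold change was -0.012 (SE 0.10, 95% interval -0.23 to 0.20, edgeR p = 0.906, exact permutation p = 0.943). Cldn11, the claudin of the tight junctions that seal the layers of central myelin, was at 134, 99.7, 137 and 112 CPM in PS19 and 127, 119.9, 119 and 99.4 CPM in Adrb1+/m;PS19 mice. The lowest mice of the 2 groups were nearly level, and the highest 2 mice were PS19. The log2 fold change of Cldn11 was -0.056 (SE 0.098, 95% interval -0.27 to 0.16, edgeR p = 0.581, exact permutation p = 0.714).

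Opalin and Ermn are genes of the fully differentiated cell. Opalin, a membrane glycoprotein of oligodendrocytes, was at 39.1, 21.3, 39.5 and 25.4 CPM in PS19 and 32.3, 38.2, 32.7 and 22.1 CPM in Adrb1+/m;PS19 mice. It varied the most of the 9, with 1.86 times as many transcripts in m665 as in m668. Its log2 fold change was -0.0041 (SE 0.19), and its 95% interval, -0.42 to 0.41, was the widest of the 9 (edgeR p = 0.983, exact permutation p = 0.914). Ermn, an actin-binding protein of late-stage oligodendrocytes, was at 101, 70.9, 96.7 and 78.8 CPM in PS19 and 88.1, 65.3, 82.6 and 76.6 CPM in Adrb1+/m;PS19 mice. The highest 2 mice were PS19 and the lowest was m661, with the groups overlapping between them. Ermn had the largest point estimate, -0.16 (SE 0.11, 95% interval -0.40 to 0.084, edgeR p = 0.183, exact permutation p = 0.371). Without m668 it was -0.24 with an unadjusted edgeR p of 0.0372 (adjusted p = 0.999957), and without any filter on low counts it was -0.16 with an unadjusted edgeR p of 0.0236, so the side of the threshold on which Ermn falls depends on 1 mouse and on the filter.

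**Figure D1:**
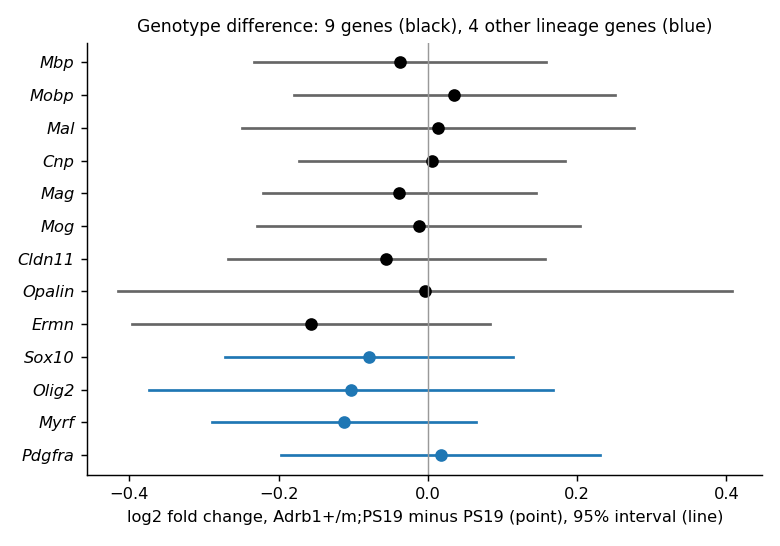
Points show the log2 fold change of each gene (x axis, Adrb1+/m;PS19 minus PS19, edgeR), and lines its 95% interval, for the 9 genes (black) and for Sox10, Olig2, Myrf and Pdgfra (blue). Every interval includes 0, and the widest belongs to Opalin, -0.42 to 0.41.

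Levels between genes were compared per kilobase of the gene length in the deposited table. Of the 9, Mbp was highest at 328 CPM per kb, followed by Mobp (129), Cnp (95.8), Mal (74.6), Cldn11 (63.3), Mag (40.3), Mog (33.6), Ermn (22.7) and Opalin (17.04). In GRCm38 the genes lie at chr9:120149707-120181484 (Mobp), chr11:100574904-100591729 (Cnp) and chr3:31149920-31164324 (Cldn11) on the plus strand. On the minus strand are Mag at chr7:30899176-30914873, Mog at chr17:37010743-37023398, Opalin at chr19:41062474-41077113, Mal at chr2:127633226-127656695 and Ermn at chr2:58045113-58052864.

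Across the rest of the lineage no difference was detected either. Of 34 other myelin and oligodendrocyte genes, 12 enzymes that make or move myelin lipids and 12 transcription factors of the lineage, none passed an unadjusted p-value under 0.05 with edgeR (2.8% of all genes tested did). The median log2 fold changes of these lists were -0.024, -0.051 and -0.0069. The same count was 0 of 11 for newly formed oligodendrocytes, 0 of 15 for precursors, 0 of 10 for genes raised in oligodendrocytes of diseased tissue and 0 of 5 for the Schwann cell genes that could be tested. At the share over all genes, lists this short can hold no call, and some genes are shared between lists.

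The lineage factors gave -0.079 for Sox10 (SE 0.090, exact permutation p = 0.571), -0.10 for Olig2 (SE 0.13, exact permutation p = 0.657) and -0.11 for Myrf (SE 0.082, exact permutation p = 0.371). Pdgfra, the growth factor receptor of precursors, gave 0.017 (SE 0.099, exact permutation p = 0.914). Without m668, Myrf was at -0.18 and passed an unadjusted p-value under 0.05 with edgeR (adjusted p = 0.999957). Among lists of other cells and regions, 3 of 8 cortical neuron genes were lower in Adrb1+/m;PS19 mice at an unadjusted p-value under 0.05 (1.37% of all genes were lower by that rule), and all 8 striatal genes had point estimates above 0, from 0.19 to 0.34, with none passing. The part of these in the values of the 9 genes was not tested.

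While the genotype made no detectable difference, the mice differed from each other, and the 9 genes did so together. The value of each gene in a mouse was taken as log2 CPM minus the mean of that gene over the 8 mice, and averaged over the 9 genes. This mean was highest in the PS19 mice m665 (0.23) and m677 (0.20), followed by m671 (0.097), m661 (0.042) and m660 (0.026) of the Adrb1+/m;PS19 group. It was lowest in m668 (-0.25), m658 (-0.20) and m659 (-0.15), of which m658 is Adrb1+/m;PS19. All 9 genes lay above their own mean in m677, m665 and m671, and all 9 lay below it in m668, m659 and m658. The lowest mouse was m668 for 7 of the 9 genes, and the highest was m665 for 6. Both genotypes were thus found among the high and among the low mice, with the PS19 mice at both extremes.

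**Figure D2:**
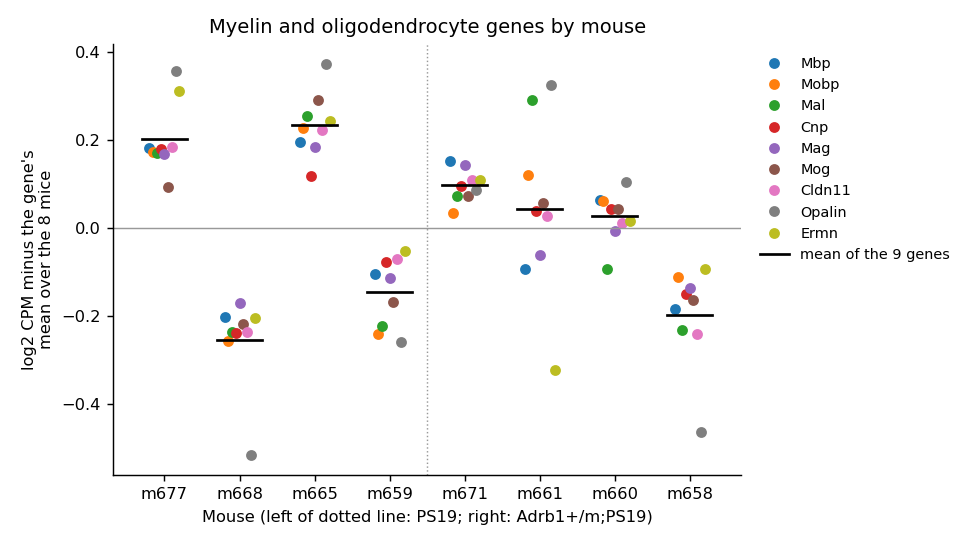
Each point is 1 gene in 1 mouse, as log2 CPM minus the mean of that gene over the 8 mice (y axis), and the bars are the means of the 9 genes. All 9 genes sit above 0 in m677, m665 and m671 and below 0 in m668, m659 and m658, while in m661 Ermn lies far below and Mal and Opalin far above the bar.

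The spread was large for genes of this abundance. The SD of log2 CPM over the 8 mice had a median of 0.18 over the 9 genes, against 0.086 over the 6404 genes at least as abundant as Opalin, and all 9 lay above that second value. From the lowest to the highest mouse the levels rose 1.28-fold for Mag, 1.32-fold for Mbp, 1.34-fold for Cnp and 1.38-fold for Cldn11. The range was 1.40-fold for Mobp, 1.42-fold for Mog, 1.44-fold for Mal and 1.55-fold for Ermn. The SD was larger among PS19 than among Adrb1+/m;PS19 mice for 9 of 9 genes (53.3% of the 6404 abundant genes had the larger SD in PS19), a difference in spread that was not tested. Because the 9 genes moved together over the same mice, these are not 9 independent comparisons. The largest gap between neighbouring mice took at most 44.0% of the range of a gene, so no gene had mice in clusters set apart by most of its range.

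Pearson's r of log2 CPM was computed for each of the 36 pairs of the 9 genes over the 8 mice. It had a mean of 0.826 and a median of 0.873, and 28 of 36 pairs had an adjusted p-value under 0.05 (exact permutation test over 40320 pairings, Benjamini-Hochberg over the 36 pairs). Spearman's rho had a mean of 0.849, with 30 pairs passing. By comparison, the median r over all pairs of the 6404 abundant genes was 0.0165, and 0.436% of those pairs reached the median r of the 9 genes. With the genotype means subtracted the mean r was 0.843, so the covariation was as large within the genotypes. Without the 2 mice farthest from the median of the first gene of a pair, the mean r was 0.789, with a lowest value of 0.26 for Opalin and Ermn. Without m668 and m658, the 2 mice with the most Ttr, the mean r was 0.735 and 14 pairs passed over 6 mice, an alternative chosen after seeing the data. The same 2 mice were also the lowest for the mean of the 9 genes, so leaving them out narrows the range of the genes as well.

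Mbp and Mag were the closest pair, with r = 0.981 and rho = 1.0, and the exact permutation p-value of 2.48e-05 for r is the smallest that 8 mice can give (adjusted p = 0.000893). The ratio of Mbp to Mag stayed between 16.2 and 17.6 in all 8 mice. Cnp and Cldn11 followed with r = 0.961 (rho = 0.929, exact permutation adjusted p = 0.00268), and Mobp and Mog with r = 0.944 (rho = 0.929, exact permutation adjusted p = 0.00268). Cldn11 had the highest mean r with the 8 others, 0.889, and Cnp (0.877), Mag (0.866), Mog (0.864), Mbp (0.856), Opalin (0.846) and Mobp (0.838) were close behind it. Mal had 0.758 and Ermn 0.635. When all 17194 other genes were ranked by r with Cldn11, the median rank of the 8 others was 21.5, whereas for Ermn it was 720.5.

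**Figure D3:**
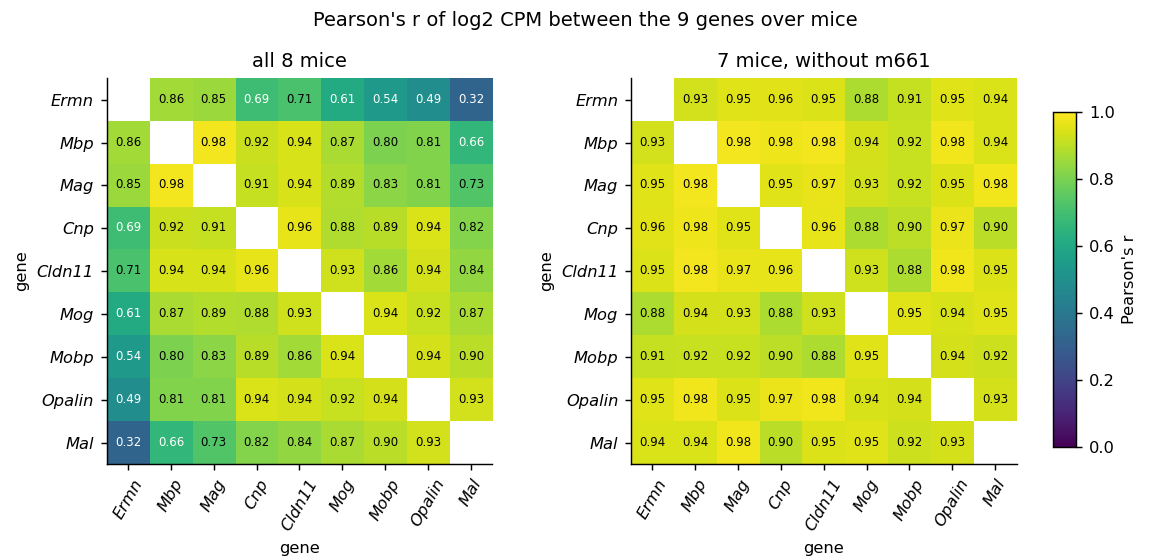
Pearson's r of log2 CPM for every pair of the 9 genes (both axes), over all 8 mice (left) and over the 7 mice without m661 (right), coloured from 0 to 1. Over 8 mice the values run from 0.32 (Mal and Ermn) to 0.98 (Mbp and Mag), and without m661 the lowest is 0.88.

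The weak pairs rested on 1 mouse. Ermn passed in only 2 of its 8 pairs, those with Mbp (r = 0.860) and Mag (r = 0.851), and its r was 0.489 with Opalin and 0.323 with Mal (exact permutation p = 0.42). In m661, Ermn was at 65.3 CPM, the lowest of the 8 mice, while Mal was at 251 CPM, the highest of the 8 mice. Relative to the mean of the other 8 genes in that mouse (log2 scale), Ermn was at -0.41, Mbp at -0.15 and Mag at -0.12, whereas Mobp was at 0.087, Mal at 0.28 and Opalin at 0.32. Cnp (-0.0033), Cldn11 (-0.016) and Mog (0.016) stayed near that mean. Opalin also lay far from the mean of the other 8 genes in m668 and m658, at -0.30 in both. The ratio of Mal to Ermn was 3.84 in m661 and 2.23 to 2.53 in the other 7 mice, and the ratio of Opalin to Ermn was 0.584 against 0.288 to 0.409. Mobp to Mbp was 0.371 against 0.291 to 0.337, and Mag to Ermn 2.40 against 1.81 to 2.05. Mbp to Mag, at 16.4, and Mal to Opalin, at 6.57, were inside the ranges of the other 7 mice. These ratios were chosen after their values were seen.

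Without m661 the mean r of the 36 pairs was 0.940, the range 0.878 to 0.982, and the mean r of Ermn with the 8 others 0.934. Without any 1 of the other 7 mice the mean r of Ermn was 0.536 to 0.642. Of the 34 other myelin genes, 27 lay below their own mean in m661 (52.6% of the abundant genes did) and 9 were at their lowest there. Of the 9 genes, 6 were above their own mean there, Opalin, Mal and Mobp by the most, and 3 were below it (Ermn, Mbp and Mag). Genes of other cells were also below their own mean in m661, namely 8 of 8 microglial, 8 of 8 striatal and 7 of 9 astrocyte genes. The counts were 5 of 5 for choroid plexus, 4 of 5 for Schwann cell and 4 of 6 for endothelial genes, against 1 of 8 cortical neuron genes. Gfap, at 182 CPM, was at its lowest of the 8 mice. In the other lists of the lineage, 9 of 10 disease-associated, 11 of 15 precursor, 9 of 12 lipid, 8 of 12 lineage factor and 8 of 11 newly formed genes were below. The part of these in the values of m661 was not tested. In m668, by contrast, 31 of the 34 lay below their own mean and 17 were at their lowest, where 11.6% of the abundant genes were at their lowest. The total count of m661, 20802158, was the second highest of the 8.

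**Figure D4:**
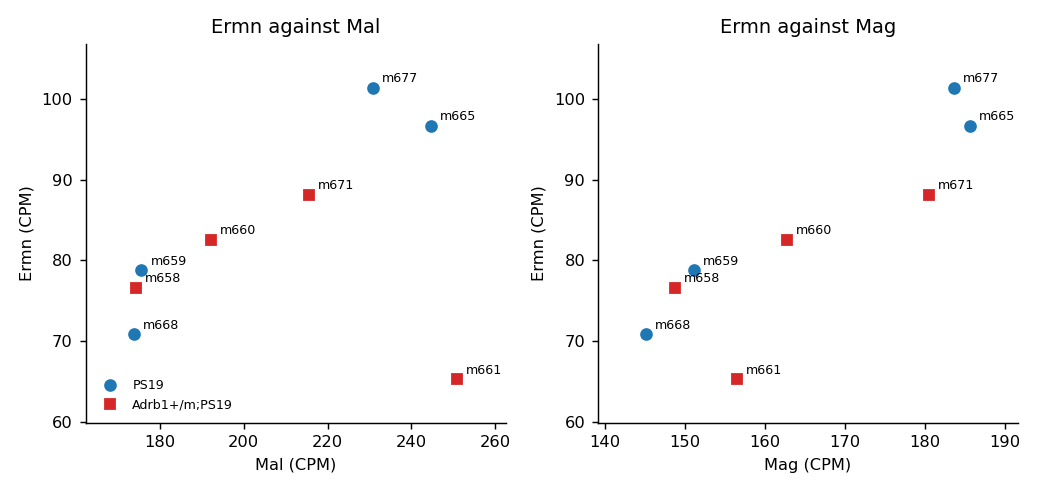
Ermn (y axis, CPM) against Mal (left) and Mag (right, both x axes in CPM) with 1 point per mouse, circles for PS19 and squares for Adrb1+/m;PS19. In 7 mice Ermn follows both genes, and m661, at 65.3 CPM of Ermn and 251 CPM of Mal, lies apart from them.

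Promoter sequences of the genes are given because the 9 genes moved together over the mice while Mal, Opalin and Ermn parted in m661. They were taken from RefSeq (GRCm38.p6) as the 250 bases before the start site, and windows were matched for 8 of the 9 genes (not for Mbp). Both strands were searched for ACAAAG and AACAAT (bound by SOX factors), CTGGCAC (MYRF), CAGNTG (the E-box bound by OLIG factors) and TATAAA (the TATA box). ACAAAG was found in 4 of 8 windows (Mobp, Cnp, Mag and Opalin) and in 16.5% of all 32817 windows. CTGGCAC was found in 2 (Cnp and Mag) and in 4.19% of all windows, and CAGNTG in 2 (Cnp and Opalin) and in 44.8%. AACAAT and TATAAA were in 0 of 8, against 9.42% and 12.4% of all windows. None of these letters was found in the windows of Mal, Mog, Cldn11 and Ermn, and a match or its absence is a description of the letters alone. Below, 140 bases of the Mobp window (chr9:120149492-120149631, plus strand) carry 6 matches to ACAAAG, all read as CTTTGT. The windows of Mag (chr7:30914864-30915113), Opalin (chr19:41077114-41077363), Mal (chr2:127656696-127656945) and Ermn (chr2:58052865-58053114) are on the minus strand. Each is written 5′ to 3′ with matches in capitals.
Mobp: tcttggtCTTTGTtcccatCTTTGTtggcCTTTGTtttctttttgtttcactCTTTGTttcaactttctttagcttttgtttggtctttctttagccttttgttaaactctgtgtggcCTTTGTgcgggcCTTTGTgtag
Mag: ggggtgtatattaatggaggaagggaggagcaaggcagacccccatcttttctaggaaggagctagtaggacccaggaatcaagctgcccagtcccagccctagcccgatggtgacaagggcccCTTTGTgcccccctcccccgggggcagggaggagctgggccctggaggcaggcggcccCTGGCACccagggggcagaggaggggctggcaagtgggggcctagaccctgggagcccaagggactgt
Opalin: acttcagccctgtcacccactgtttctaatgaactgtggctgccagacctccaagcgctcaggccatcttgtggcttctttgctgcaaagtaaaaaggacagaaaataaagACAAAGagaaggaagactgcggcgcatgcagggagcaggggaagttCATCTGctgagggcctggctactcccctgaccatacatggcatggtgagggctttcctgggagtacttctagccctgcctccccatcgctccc
Mal: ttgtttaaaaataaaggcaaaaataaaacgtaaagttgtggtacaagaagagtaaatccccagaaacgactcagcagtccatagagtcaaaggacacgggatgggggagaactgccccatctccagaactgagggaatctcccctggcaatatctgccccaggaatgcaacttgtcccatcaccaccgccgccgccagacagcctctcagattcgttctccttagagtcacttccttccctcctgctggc
Ermn: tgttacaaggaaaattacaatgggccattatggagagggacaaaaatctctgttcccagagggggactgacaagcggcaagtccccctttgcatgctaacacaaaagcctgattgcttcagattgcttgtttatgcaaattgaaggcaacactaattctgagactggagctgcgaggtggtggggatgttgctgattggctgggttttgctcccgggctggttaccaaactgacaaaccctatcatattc

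In Mag the ACAAAG match is read as CTTTGT and lies upstream of the CTGGCAC match, and in Opalin ACAAAG is followed by an E-box match read as CATCTG.

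Genes of other stages of the lineage and of other cells were set beside the 9 genes. Pearson's r with each of the 9 genes over the 8 mice was computed for 7 partner genes, 63 relations in all, and 0 had an adjusted p-value under 0.05 (exact permutation test, Benjamini-Hochberg over the 63), while 4 had an unadjusted one. The strongest was Sox10 with Ermn (r = 0.845, rho = 0.857, exact permutation p = 0.00446, adjusted p = 0.281). Without the 2 mice farthest from the median of Ermn its r was 0.643, and the mean r of Sox10 with the 9 genes was 0.291, or 0.659 without m661. Pdgfra, of precursors, had a mean r of -0.067 (-0.27 to 0.165 with each mouse left out). Gfap of astrocytes had -0.16 (-0.42 to 0.060) and Aif1 of microglia 0.097 (-0.075 to 0.281). Ppp1r1b of striatal neurons had -0.24 (-0.50 to -0.043, and 0.160 over the 6 mice without m668 and m658). Slc17a7, the glutamate transporter of cortical excitatory neurons, had -0.37, with -0.073 without m668 and -0.60 without m658. It was not typical of its list, as 7 of the 8 cortical neuron genes had a mean r above 0 (median 0.343). Nor was Aif1, the only 1 of the 8 microglial genes with a mean r above 0 (median -0.29). Cldn5, the endothelial claudin, had -0.55 (-0.69 to -0.44), the other 3 relations with an unadjusted p-value under 0.05 being its own with Mag, Ermn and Mbp, of which that with Mag had the lowest r, -0.780 (exact permutation p = 0.0288, adjusted p = 0.613). Cldn5 was not typical of its list either. It was the lowest of the 6 endothelial genes, whose median was -0.12, and 2 of the 6 had a mean r above 0. Without m658, 1 relation had an adjusted p-value under 0.05.

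Over whole lists, the r with the 9 genes was averaged for each gene and is given here as a description. Of the 34 other myelin genes, 24 had a mean r of at least 0.5, where 11.2% of the 17186 genes outside the 9 did, and their median was 0.652. The medians were 0.339 for the lipid enzymes and 0.346 for the lineage factors, among them Myrf with 0.779. They were 0.0039 for newly formed oligodendrocytes, -0.29 for precursors and -0.13 for the disease-associated genes. In these last 3 lists Bcas1 (0.804), Matn4 (0.792) and Il33 (0.856) stood apart at the high end and Tnr (-0.82) at the low end, names picked after their values were seen. The median was -0.10 for Schwann cell, -0.13 for astrocyte, -0.29 for microglial, -0.12 for endothelial, 0.343 for cortical neuron and -0.28 for striatal genes.

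**Figure D5:**
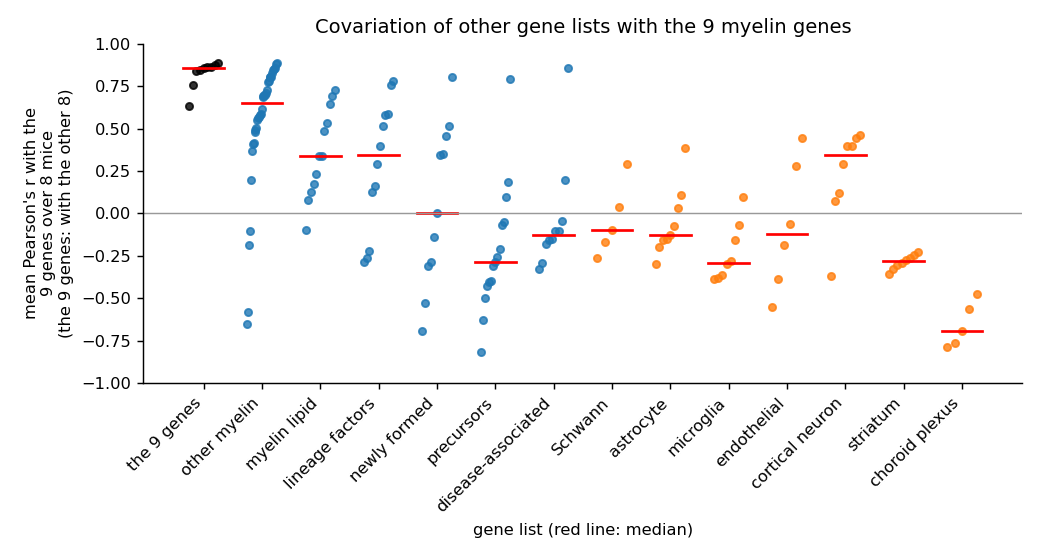
Each point is 1 gene, placed by its mean Pearson's r with the 9 genes over the 8 mice (y axis; for the 9 genes themselves, with the other 8), and red lines are list medians. The other myelin genes have a median of 0.652, the precursor genes -0.29 and the choroid plexus genes -0.69.

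The choroid plexus genes ran opposite to the 9 genes, with a median r of -0.69 and all 5 tested genes between -0.79 and -0.47. Of the 5, Folr1, Aqp1 and Otx2 were sparse, with means of 1.33, 1.48 and 1.03 CPM. The summed level of the 5, most of it from Ttr (mean 141 CPM), was 18.6 to 363 CPM in PS19 and 22.5 to 567 CPM in Adrb1+/m;PS19 mice. The 3 mice with the most Ttr, m658, m668 and m659, were the 3 mice with the least myelin transcripts. The part of choroid plexus tissue in the differences between mice was not tested. Without m668 and m658, but with m659, the mean r of the 36 pairs was 0.735 and 14 pairs passed in place of 28. As m668 and m658 were also the lowest mice for the mean of the 9 genes, this fall cannot be tied to Ttr. The r of the 9 genes with the log2 total count ran from 0.0041 for Ermn to 0.676 for Mal (lowest exact permutation adjusted p = 0.226), with rho from -0.048 to 0.571. Without m665 and m661, the mice farthest from the median total, r was 0.066 for Mal and at most 0.381, for Mobp. The mice with the lowest and the highest total, m668 and m665, were also the lowest and the highest for the mean of the 9 genes, and the part of depth in the differences between mice was not tested further.

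Among the 10 genes outside the group whose levels followed the 9 genes best over the 8 mice were, by mean r, Pi4k2b (0.905), Ly6g6f (0.904), Prr18 (0.895), Tmbim1 (0.894), Sept4 (0.888), Pvalb (0.888), Zfp975 (0.879), Gm43667 (0.875) and Creb5 (0.871). Several were sparse, with 1.26 CPM for Ly6g6f, 2.49 CPM for Gm43667, 3.17 CPM for Pi4k2b and 3.76 CPM for Zfp975. Pvalb, the calcium-binding protein of fast-spiking inhibitory neurons, was at 64.2, 45.1, 74.9 and 46.3 CPM in PS19 and 65.7, 60.1, 61.5 and 46.5 CPM in Adrb1+/m;PS19 mice. It was low in m668, m659 and m658, the same 3 mice that were low for myelin genes. The 5 genes that ran most opposite were March4 (-0.88), Gse1 (-0.88), Cacna1c (-0.87), Col25a1 (-0.87) and Sptlc2 (-0.86), the last a subunit of the enzyme that begins sphingolipid synthesis. These genes were ranked on the same 8 libraries, so the values describe the likeness and are not tested.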

How the data were processed

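Cortical RNA of 8 mice was sequenced as paired-end libraries. The authors aligned reads to GRCm38 with HISAT2 2.0.5 and deposited raw counts per Ensembl gene from featureCounts 1.5.0-p3 (versions from the submitters' processing notes, which also list DESeq2 1.20.0). How strand, read pairs and multi-mapping reads were handled is not given in the sources used here.

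Counts were analysed in R 4.3.3 with edgeR 4.0.16: genes were kept by filterByExpr (17195 of 54532), normalized with TMM and compared between genotypes with the quasi-likelihood test (glmQLFit, glmQLFTest, 2-sided, no covariates), and p-values were adjusted by Benjamini-Hochberg across every tested gene. CPM values use the TMM factors, and log2 CPM a prior count of 2. Single genes were also compared with an exact permutation test over 70 divisions of the mice, and correlations with exact permutations over 40320 pairings. The deposited gene names included 27 turned into dates, all of them restored from the Ensembl identifier.

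The members and lists were chosen with earlier results of these data known. The genes named were the 9 genes, Sox10, Olig2, Myrf, Pdgfra, the 7 partner genes, genes of other oligodendrocyte lists with an unadjusted p-value under 0.05, and the 10 highest and 5 lowest by mean r with the 9 genes. Results of some genes that the rule names are not reported here, and the relations with partner genes were adjusted without them. Other names were chosen after their values were seen. Alternatives were DESeq2 1.42.0, limma-voom (limma 3.58.1), DESeq2's size factors, other count filters, protein-coding genes alone, 1 surrogate variable (sva 3.50.0), another prior count, no TMM, Spearman's rho, each mouse left out, and, added after seeing the data, 6 mice without m668 and m658. The edgeR fit was tested on simulated counts, while the permutation tests and the promoter search were not. At 14653222 to 21223754 counts per mouse, depth sets the precision of the sparse genes. Libraries of a genotype differed by 4.82 to 10.1 in chi-square per degree of freedom, so none was a copy of another of its genotype. Pairs across the genotypes were not compared in this way.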

Additional observations from a re-analysis of the deposited data

Results flagged for a closer look

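Among 26 groups of 4 mice (13 genes in 2 genotypes), 1 had a mouse far from the others, where chance gives about 1 in 20. Mog in m658 of the Adrb1+/m;PS19 group was at 50.8 CPM, against 58.6 to 59.9 CPM in the other 3 mice, and the gap made up 0.871 of the range of the group on the log2 scale. All 9 genes were below their own mean in m658, and the same mouse had the most Ttr of the 8, at 526 CPM. The part of Ttr-rich tissue in the value of Mog was not tested.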

How the results depend on the processing

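No paired analysis was possible because litters are not given in the labels and each mouse has a number of its own. The log2 fold changes of the 9 genes were near 0, and leaving out each mouse in turn turned the direction of 8 of them, with no p-value under 0.05 among those 8. The ranges were -0.11 to 0.024 for Mbp, -0.039 to 0.12 for Mobp, -0.089 to 0.11 for Mal, -0.067 to 0.070 for Cnp, -0.098 to 0.019 for Mag, -0.081 to 0.097 for Mog, -0.14 to 0.014 for Cldn11 and -0.15 to 0.13 for Opalin. They were -0.24 to -0.074 for Ermn, -0.13 to 0.0068 for Sox10, -0.21 to 0.037 for Olig2, -0.18 to -0.048 for Myrf and -0.072 to 0.090 for Pdgfra. limma-voom gave 0.0044 for Opalin. Without m668 and m658, Cnp was at -0.019 and Pdgfra at -0.034, and 1 of 34 other myelin genes and 1 of 12 lineage factors (Myrf in both lists, -0.18, edgeR adjusted p = 0.999735) passed an unadjusted p-value under 0.05. In that fit 468 of all genes passed.

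Without any filter on low counts, 1 of the 9 genes (Ermn), 1 of 12 lipid enzymes (Fa2h) and 1366 of all genes (481 with the filter) passed an unadjusted p-value under 0.05. More genes were tested without the filter, and the edgeR p-values of the same genes also changed. For Mbp the edgeR p was 0.450 without the filter and 0.684 with it, at log2 fold changes of -0.037 and -0.038. The edgeR p-value was lower without the filter for each of the 9 genes. With 1 surrogate variable there was also 1 lipid enzyme, again Fa2h (613 of all genes passed). A minimum of 10 counts in every mouse gave 1 Schwann cell gene, Prx (447 of all genes passed). With each mouse left out, 431 to 674 of all genes passed (604 without m668), given as counts because the genes tested differ between fits. Leaving out each mouse gave 0 to 1 of the 9 genes, 0 to 2 other myelin genes (Myrf and Sept4 without m668, Tppp3 without m659), 0 to 1 lipid enzymes (Fa2h without m668, m671 or m660) and 0 to 1 lineage factors (Myrf without m668). No adjusted p-value of these lists was under 0.05 in any setting.

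The mean r of the 36 pairs ran from 0.780 to 0.940 with each mouse left out, with 19 to 36 pairs passing. Relations with partner genes that passed numbered 0 to 1 with each mouse left out (1 without m658). Relations over 7 or 6 mice also have fewer pairings to test, and 14 pairs passed over 6 mice.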
